A study of Mus musculus with 9 samples.

Results

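Pax6, Rax, Six3, Six6, Lhx2, Sox2, Sox9, Meis1 and Meis2 encode transcription factors of the eye field and of retinal progenitor cells. They were followed through the optic cup of the mouse embryo at embryonic stage E11.5, while the optic fissure still runs along the ventral side of the cup. The 9 genes were chosen by name, out of 18193 genes with a named probe set. They had 22 probe sets among the 45037 that are not controls. A probe set is a group of short probes for 1 transcript region on the Affymetrix Mouse Genome 430 2.0 array. The brightest probe set of a gene, by its mean over all arrays, stands for the gene, and its other probe sets are given after it.

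RNA came from cells cut out of the cup by laser microdissection, with 1 array per sample. The optic fissure samples held cup cells lying within a few cell diameters of the fissure margin. The nasal and the temporal samples came from the middle of the nasal and of the temporal side of the cup. Each of the 3 regions had 3 arrays, described as biological replicates and lettered A, B and C. The labels used here name no strain, sex, mutation or treatment for any region, and they leave unsaid whether samples that share a letter share embryos. The p-values therefore measure the spread between these samples.

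The eye field is the patch of anterior neural plate that gives rise to both eyes. Pax6 (a paired-domain and homeodomain factor), Rax, Six3, Six6 and Lhx2 (homeodomain factors) are active there and remain active in retinal progenitors, where they support one another's expression and keep the tissue retinal. Sox2 and Sox9 bind DNA through an HMG box, and Sox2 keeps neural progenitors competent to divide and to form neurons. Meis1 and Meis2 are homeodomain proteins of the TALE class, which bind DNA together with other homeodomain proteins and are known regulators of Pax6 in the developing eye. At the ventral side of the cup, Pax6 and Pax2 are known to restrain each other at the border between retina and optic stalk.

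Of the 9 genes, Meis2 rose and Pax6 fell in the fissure. Meis2 was 2.34-fold higher and Pax6 was 1.92-fold lower than the mean of the nasal and temporal cup. The other 7 did not pass an adjusted p of 0.05, although Lhx2 was higher in every fissure array than in every other array and passed with the array letter as a block (adjusted p = 0.00722). Across all 12770 genes tested, 8.60% passed in this comparison, against 2 of the 9. Against the nasal cup alone, where 6.37% of genes passed, and against the temporal cup alone, where 5.36% passed, the same pair of genes passed. Between the nasal and the temporal cup, 0.0470% of all genes and 0 of the 9 passed. Fold changes are on the log2(intensity + 16) scale, which understates the change of dim genes, and adjusted p-values come from limma with the Benjamini-Hochberg method over all tested genes. In bulk RNA, fewer cells of a type and less RNA per cell cannot be told apart.

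**Figure D1:**
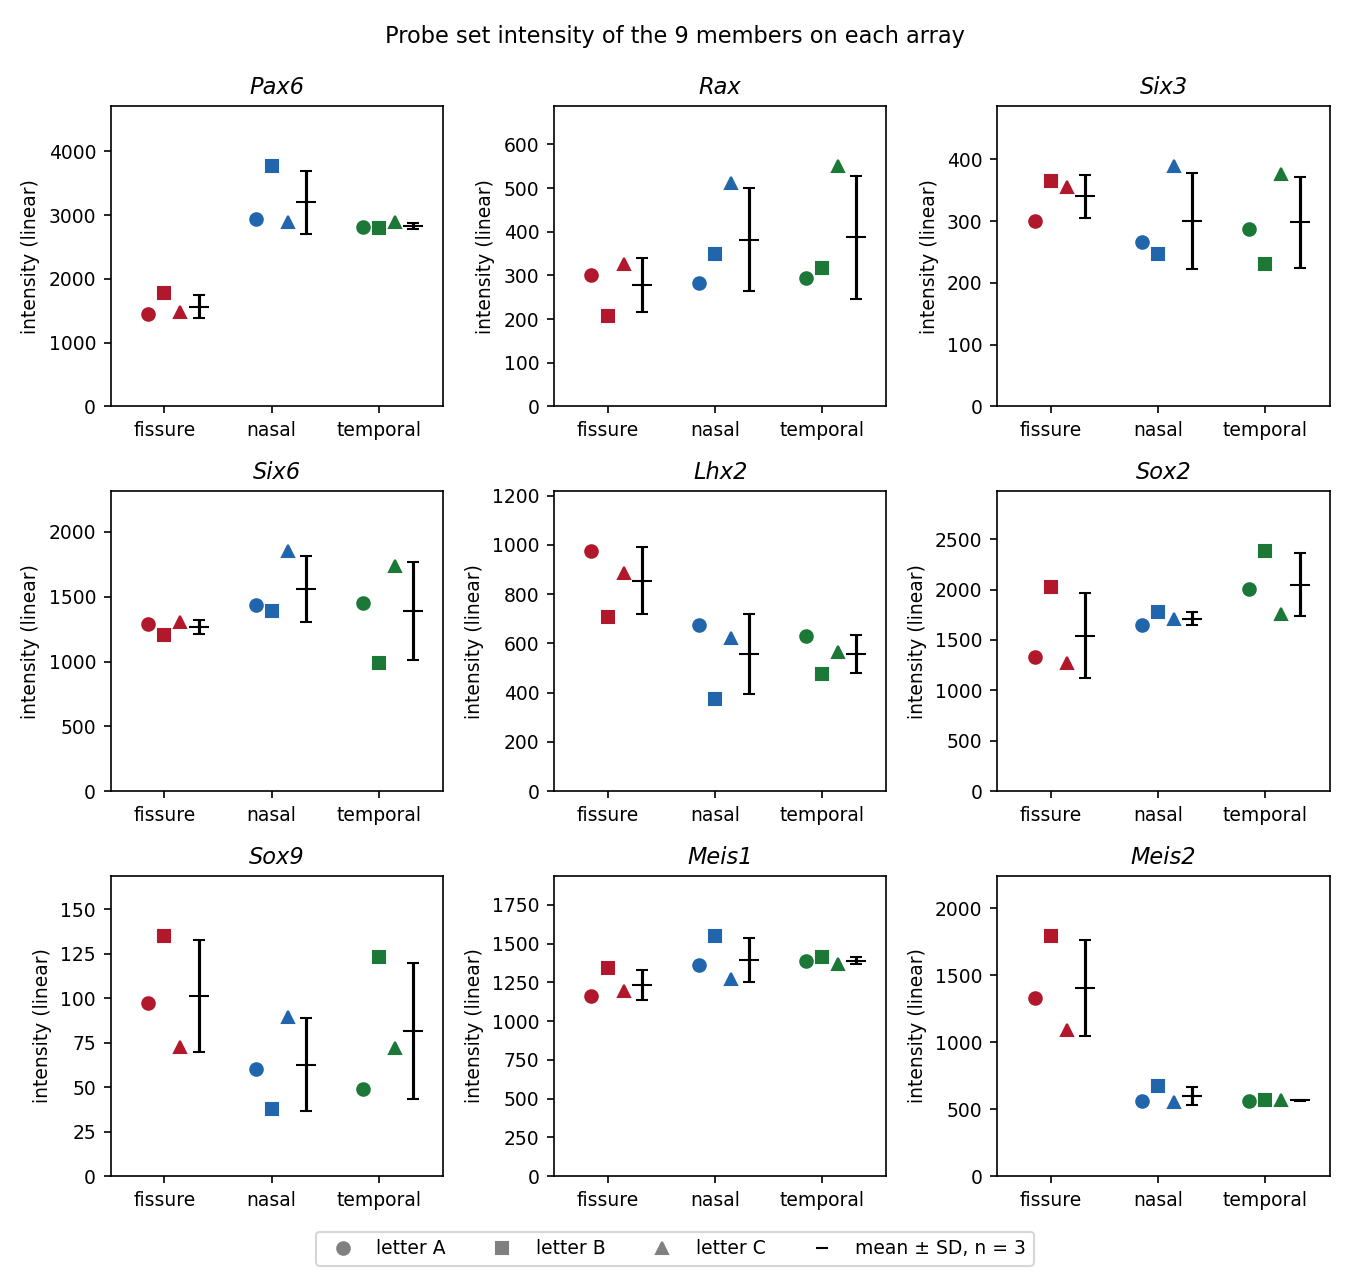
Probe set intensity (linear scale, arbitrary units) of the 9 genes in each array, 1 panel per gene, with the optic fissure left of the nasal and temporal cup; points are arrays, with a symbol for each letter, and the black line and whiskers are the mean ± SD of 3 arrays. The 3 fissure arrays lie below all others for Pax6 and above all others for Lhx2 and Meis2.

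Upstream sequence is shown for the members because Meis proteins are known regulators of Pax6 and Meis2 is the member that rose. The Meis core was thus chosen after that rise was seen, and a part of Meis2 in the levels of the other members was not tested. From the RefSeq promoter table (mouse build GRCm38.p6), 9 start sites of 7 of the genes were read, with Pax6 and Lhx2 at 2 starts each. No window of Rax or Sox9 was read. Not every chromosome was read for the members, while the share over all windows covered them all. In the 250 bases before each start, the core TGACAG bound by Meis proteins (read on both strands, as CTGTCA on the reverse) occurred in 4 of 9 member windows and in 15.86% of 32851 windows of that length. The 4 matches, shown in capitals within 60 bases of the plus strand, lay before the second Pax6 start and before the Six3, Six6 and Sox2 starts.
Pax6, chr2:105682277-105682336: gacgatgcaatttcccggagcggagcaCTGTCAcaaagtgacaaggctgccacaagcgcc
Six3, chr17:85620668-85620727: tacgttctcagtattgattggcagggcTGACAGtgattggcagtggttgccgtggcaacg
Six6, chr12:72939809-72939868: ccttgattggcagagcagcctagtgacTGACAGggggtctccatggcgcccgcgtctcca
Sox2, chr3:34649935-34649994: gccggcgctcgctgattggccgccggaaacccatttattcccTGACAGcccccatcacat

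The distance of the match from the start was 159 bases for Pax6, 139 for Six3, 46 for Six6 and 18 for Sox2. The Sox core ACAAAG (read on both strands, as CTTTGT on the reverse) was found in 2 member windows and in 16.46% of all windows. In the Pax6 window it overlapped the Meis core, and the other match was in the Sox2 window. The homeodomain core TAATTA, which reads alike on both strands, was in 0 member windows and in 4.84% of all windows. The 250 bases before the Meis2 start, chr2:116064620-116064869 read on the minus strand, held none of the 3 cores in these letters.
Meis2: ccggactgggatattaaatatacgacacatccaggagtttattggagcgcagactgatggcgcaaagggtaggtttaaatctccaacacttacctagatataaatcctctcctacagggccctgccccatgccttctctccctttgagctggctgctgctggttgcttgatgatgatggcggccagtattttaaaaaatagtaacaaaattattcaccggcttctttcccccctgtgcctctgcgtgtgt

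These matches are letters in a window and do not show binding. Of the 4 genes with a Meis core in a window, Pax6 fell in the fissure, and Six3, Six6 and Sox2 did not pass the test.

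The arrays themselves were alike in scale, with medians from 27.5 to 30.3 and a trimmed mean of 150 on each. Of 9 genes chosen to check the regions, some showed a clear place. Vax1 of the optic stalk had 629 ± 91.7 in the fissure, against 25.4 ± 15.8 in the nasal and 40.7 ± 13.6 in the temporal cup (SD, n = 3 each). Foxd1 of the temporal retina averaged 59.7 in the fissure, 5.77 in the nasal and 923 in the temporal cup. Hmx1, a gene of the nasal retina, averaged 643 in the fissure, 368 in the nasal and 82.5 in the temporal cup, and was thus highest in the fissure, and its difference between nasal and temporal did not pass (adjusted p = 0.135). Foxd2 read 17.8 in the fissure, 25.1 in the nasal and 28.5 in the temporal cup and did not pass. On the first principal component, fissure array B lay at -9.40, away from fissure arrays A and C at -38.6 and -43.0. The poly-A spike added at labelling read 844, 1180 and 2099 in fissure arrays A, B and C, 493, 722 and 1060 in nasal arrays, and 420, 576 and 960 in temporal arrays. It was highest in the fissure within each letter, and its part in the results was not tested beyond the fit with the spike as a covariate. The ratio of 3-prime to 5-prime Gapdh signal, a sign of RNA quality, was also highest in the fissure within each letter. It was 8.12, 4.93 and 14.96 in fissure arrays A, B and C, 6.08, 4.90 and 8.77 in nasal arrays, and 7.42, 4.46 and 6.69 in temporal arrays.

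Pax6, which instructs eye formation and keeps retinal progenitors multipotent, had intensities of 1442.5, 1776.1 and 1475.8 in fissure arrays A, B and C. It had 2941.3, 3767.4 and 2888.6 in the nasal arrays and 2820.2, 2797.8 and 2885.6 in the temporal arrays. All fissure arrays lay well below all others, and the temporal arrays were almost level with each other. The means were 1565 ± 184 in the fissure, 3199 ± 493 in the nasal and 2835 ± 45.6 in the temporal cup (SD, n = 3 each). The change against the mean of both was -0.94 on the log2 scale (SE 0.14, 95% interval -1.25 to -0.63, adjusted p = 0.00147), which ranked 256th by p among 12770 genes. Against the nasal cup it was -1.02 (SE 0.16, adjusted p = 0.00307), and against the temporal cup -0.86 (SE 0.16, adjusted p = 0.00929). Without fissure array A the change against the temporal cup was -0.80, with an adjusted p of 0.0540, and in a fit that takes the poly-A spike signal into account it was -0.85, with an adjusted p of 0.0915.

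Pax6 had 5 probe sets, and 4 of them were bright enough to be tested as genes were. The second brightest averaged 142 ± 29.2 in the fissure, 317 ± 103 in the nasal and 326 ± 77.2 in the temporal cup (SD, n = 3 each). Its change of -1.08 (SE 0.22) against the mean of both passed when all probe sets were fitted together, with an adjusted p of 0.0299, in a fit in which 3.04% of all probe sets passed. It did not pass there against the nasal cup alone (limma adjusted p = 0.0812) or the temporal cup alone (adjusted p = 0.0681). A dimmer probe set also had all fissure arrays below all others, at 17.7 ± 1.71 in the fissure, 30.7 ± 7.29 in the nasal and 40.6 ± 11.7 in the temporal cup, and its change of -0.59 did not pass (adjusted p = 0.0837). The remaining tested probe set was level across the regions, at 37.3 ± 10.1 in the fissure, 36.9 ± 10.5 in the nasal and 36.2 ± 6.40 in the temporal cup, with a change of 0.02. Both of the brightest probe sets for Pax6 therefore fell against the mean of both, while not every probe set annotated to the gene moved. Which transcripts the probe sets read was not analysed here.

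Rax, which is needed for the optic vesicle to form, had intensities of 301.4, 206.7 and 325.5 in fissure arrays A, B and C. It had 282.9, 348.5 and 512.2 in the nasal arrays, and 294.7, 316.4 and 550.1 in the temporal arrays. The regions overlapped, since fissure array A was as high as the nasal and temporal arrays of that letter. The means were 278 ± 62.8 in the fissure, 381 ± 118 in the nasal and 387 ± 142 in the temporal cup (SD, n = 3 each). The change was -0.42 (SE 0.24, 95% interval -0.95 to 0.11, adjusted p = 0.342). Arrays of letter C were the brightest for Rax in all 3 regions.

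Six3 holds back Wnt signalling in the anterior neural plate, and its paralog Six6 supports the growth of the retinal progenitor pool. Six3 had 300.5, 365.3 and 355.3 in fissure arrays A, B and C, against 265.9, 246.5 and 389.0 in nasal and 286.9, 230.1 and 376.7 in temporal arrays. The fissure arrays lay within the range of the others. Their means were 340 ± 34.9 in the fissure, 300 ± 77.3 in the nasal and 298 ± 73.9 in the temporal cup (SD, n = 3 each). The change was 0.20 (SE 0.19, 95% interval -0.21 to 0.61, adjusted p = 0.592). The 2 other Six3 probe sets were too dim to be tested as genes were.

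Six6 had 1289.4, 1207.5 and 1307.0 in fissure arrays A, B and C, against 1436.0, 1388.1 and 1852.3 in nasal and 1449.5, 987.1 and 1735.7 in temporal arrays. All fissure arrays were below all nasal arrays, while temporal array B was the lowest of the 9. The means were 1268 ± 53.1 in the fissure, 1559 ± 255 in the nasal and 1391 ± 378 in the temporal cup (SD, n = 3 each). The change against the mean of both was -0.19 (SE 0.18, 95% interval -0.59 to 0.21, adjusted p = 0.599), and against the nasal cup it was -0.28 (adjusted p = 0.532).

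Six3 and Six6 were also compared with each other within each array, as the log2 ratio centred on its mean over the 9 arrays, so that no level of one gene was set against the other. This ratio was 0.07, 0.43 and 0.28 in fissure arrays A, B and C. It was -0.25, -0.31 and -0.09 in nasal and -0.16, 0.08 and -0.05 in temporal arrays. Fissure array A lay below temporal array B, and the other fissure arrays lay above all others. The difference of the fissure from the rest was 0.39 (SD 0.18 over 3 fissure arrays and 0.14 over the others). An exact two-sided permutation test over the 84 ways to choose 3 of 9 arrays gave p = 0.0238, and 0.0357 after adjustment over the 3 pairs of relatives compared, where the smallest p possible is 0.0119. With the fissure label moved only within a letter there are 27 arrangements, and the exact permutation p was 0.0370, the smallest they can give, and 0.0556 adjusted over the 3 pairs. After adjustment the difference passed only where the letters were ignored. Its p within letters was already the smallest possible, and the adjusted value also depends on the other pairs. That it did not pass there does not show that the letters account for the difference.

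Lhx2, a LIM homeodomain factor needed for the optic vesicle to become a cup, had 975.0, 707.2 and 884.5 in fissure arrays A, B and C. It had 674.7, 372.4 and 623.1 in nasal arrays and 630.4, 474.7 and 565.5 in temporal arrays. Every fissure array was above every other array, and letter B was the lowest in each region. The means were 856 ± 136 in the fissure, 557 ± 162 in the nasal and 557 ± 78.2 in the temporal cup (SD, n = 3 each). The change was 0.62 (SE 0.20, 95% interval 0.18 to 1.06) and did not pass, with an adjusted p of 0.0820.

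With the letter as a replicate block, the change of Lhx2 kept its size of 0.62, its SE was 0.12 and its adjusted p was 0.00722. In that fit 17.0% of all genes and 3 of the 9 members passed, Lhx2 being the member added. Blocked, Lhx2 also passed against the nasal cup (change 0.64, adjusted p = 0.0158) and against the temporal cup (change 0.60, adjusted p = 0.0219). Without fissure array B and without the block the adjusted p was 0.0486. Pax6, Lhx2 and Meis2 were the 3 of 9 members whose fissure arrays did not overlap the other arrays, against 14.2% of all tested genes.

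**Figure D2:**
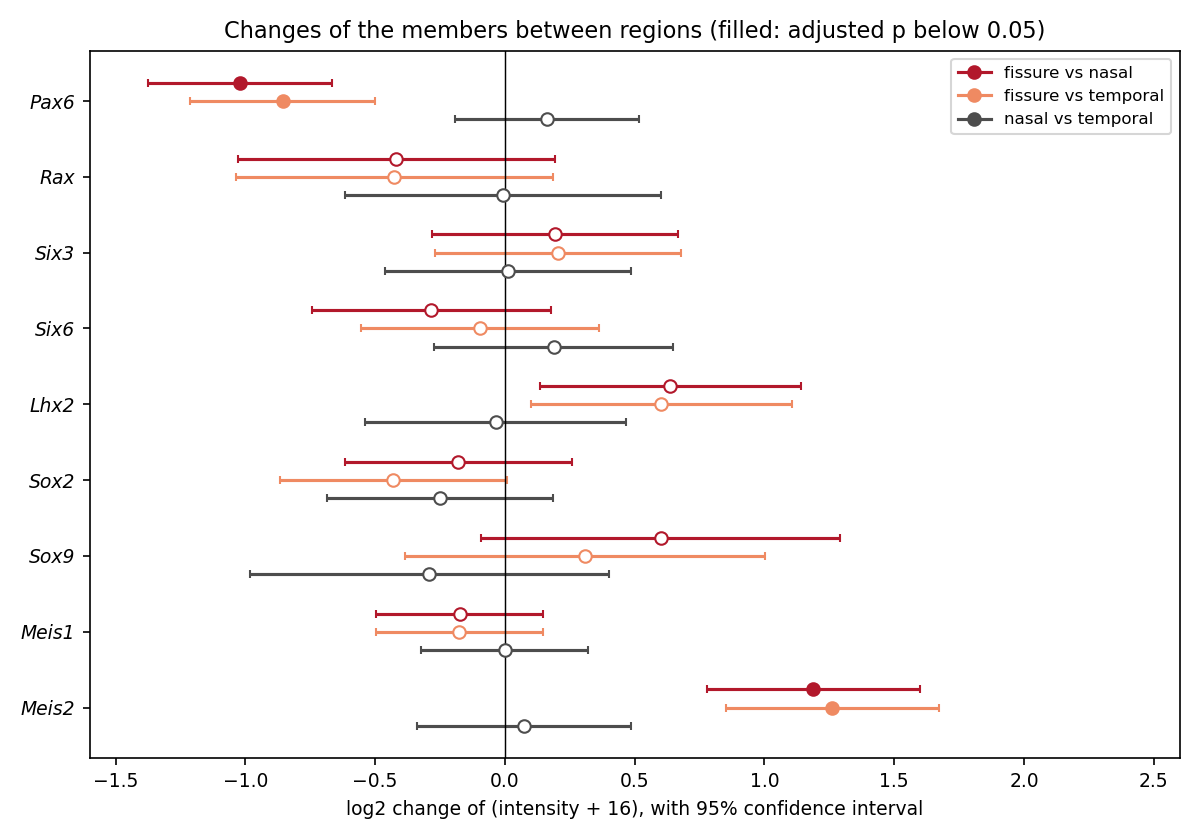
Change of each gene on the log2(intensity + 16) scale (horizontal axis) for the 3 pairs of regions, told apart by colour, with 95% confidence intervals from limma; filled points passed an adjusted p of 0.05. Meis2 at 1.19 and 1.26 and Pax6 at -1.02 and -0.86 are the filled ones, and all nasal against temporal intervals cross 0.

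Sox2 had 1329.8, 2028.1 and 1266.8 in fissure arrays A, B and C, against 1648.5, 1775.8 and 1703.2 in nasal and 2008.3, 2381.4 and 1759.5 in temporal arrays. Fissure arrays A and C were the 2 lowest of the 9, and fissure array B was the second highest. The means were 1542 ± 423 in the fissure, 1709 ± 63.9 in the nasal and 2050 ± 313 in the temporal cup (SD, n = 3 each). The change was -0.30 (SE 0.17, 95% interval -0.68 to 0.07, adjusted p = 0.338). Without fissure array B the change against the mean of both was -0.52 and still did not pass (limma adjusted p = 0.0501). Without that array it was -0.39 against the nasal cup (adjusted p = 0.181) and -0.64 against the temporal cup (adjusted p = 0.0440). With the Gapdh ratio as a covariate, the change against the mean of both was -0.15. Arrays were also weighted by how closely they followed their region over all tested genes, which gave fissure array B the lowest weight, 0.33. In that limma fit the change against the mean of both was -0.44 with an adjusted p of 0.0140.

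Sox9, known in the later retina for its role in progenitors and glia, was the dimmest of the 9 genes. Its main probe set averaged 81.8 and lay above the array median on every array. This probe set read 97.1, 135.0 and 72.4 in fissure arrays A, B and C, against 60.3, 37.8 and 89.7 in nasal and 48.8, 123.4 and 71.9 in temporal arrays. The regions overlapped, and the change of 0.45 (SE 0.27, 95% interval -0.15 to 1.05) did not pass (adjusted p = 0.372).

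A second Sox9 probe set gave a clearer separation, at 130.9, 116.7 and 89.9 in fissure arrays A, B and C. It read 62.2, 33.1 and 50.4 in nasal arrays and 65.0, 23.3 and 53.1 in temporal arrays. All fissure arrays were above all others, with means of 112.5 ± 20.8 in the fissure, 48.6 ± 14.6 in the nasal and 47.1 ± 21.5 in the temporal cup (SD, n = 3 each). Its change of 1.04 (SE 0.24) had an adjusted p of 0.0505 over all probe sets. Where the most variable probe set stood for each gene, this probe set was used for Sox9 and passed, with an adjusted p of 0.0253. The Sox9 probe sets thus disagree on whether the groups overlap. Another, with a mean of 11.1, was too dim to be tested as genes were.

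The centred log2 ratio of Sox9 to Sox2 was 0.66, 0.48 and 0.38 in fissure arrays A, B and C, all above the other arrays. It was -0.21, -0.82 and 0.21 in nasal and -0.73, 0.13 and -0.10 in temporal arrays. The difference was 0.76 (SD 0.15 over 3 fissure arrays and 0.43 over the others), with p = 0.0357 by the same exact permutation test and 0.0357 adjusted over the 3 pairs. Within letters the exact permutation p was 0.0741, before and after adjustment.

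Meis1 had 1159.4, 1342.5 and 1194.1 in fissure arrays A, B and C, against 1359.0, 1548.9 and 1274.2 in nasal and 1389.9, 1414.0 and 1367.2 in temporal arrays. Every fissure array was below every temporal array, and the fissure arrays overlapped the nasal ones. The means were 1232 ± 97.3 in the fissure, 1394 ± 141 in the nasal and 1390 ± 23.4 in the temporal cup (SD, n = 3 each). The change was -0.17 (SE 0.13, 95% interval -0.45 to 0.10, adjusted p = 0.474). The 2 other Meis1 probe sets had changes of -0.25 and -0.71 and did not pass.

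Meis2 had 1328.8, 1793.4 and 1094.3 in fissure arrays A, B and C. It had 563.3, 674.0 and 554.5 in nasal arrays and 558.2, 567.0 and 569.4 in temporal arrays. The lowest fissure array was well above the highest of the others, and the 3 temporal arrays were close together. The means were 1406 ± 356 in the fissure, 597 ± 66.6 in the nasal and 565 ± 5.90 in the temporal cup (SD, n = 3 each). The change against the mean of both was 1.23 (SE 0.16, 95% interval 0.87 to 1.58, adjusted p = 6.86e-04), which ranked 180th by p among 12770 genes. It was 1.19 against the nasal cup (adjusted p = 0.00303) and 1.26 against the temporal cup (adjusted p = 0.00208).

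All 4 Meis2 probe sets had fissure arrays above all others, and all 4 passed against the mean of both when every probe set on the array was fitted together. From the brightest to the dimmest, their changes were 1.23, 1.37, 1.11 and 1.30, with adjusted p-values of 0.00260, 8.41e-04, 0.0271 and 0.00147. Meis2 was thus the member whose probe sets all moved one way and all passed against the mean of both. The probe set with the change of 1.11 did not pass against the nasal cup alone (adjusted p = 0.0714) or the temporal cup alone (adjusted p = 0.0639). For all members together, 18 of 22 probe sets were bright enough to be tested as genes were.

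**Figure D3:**
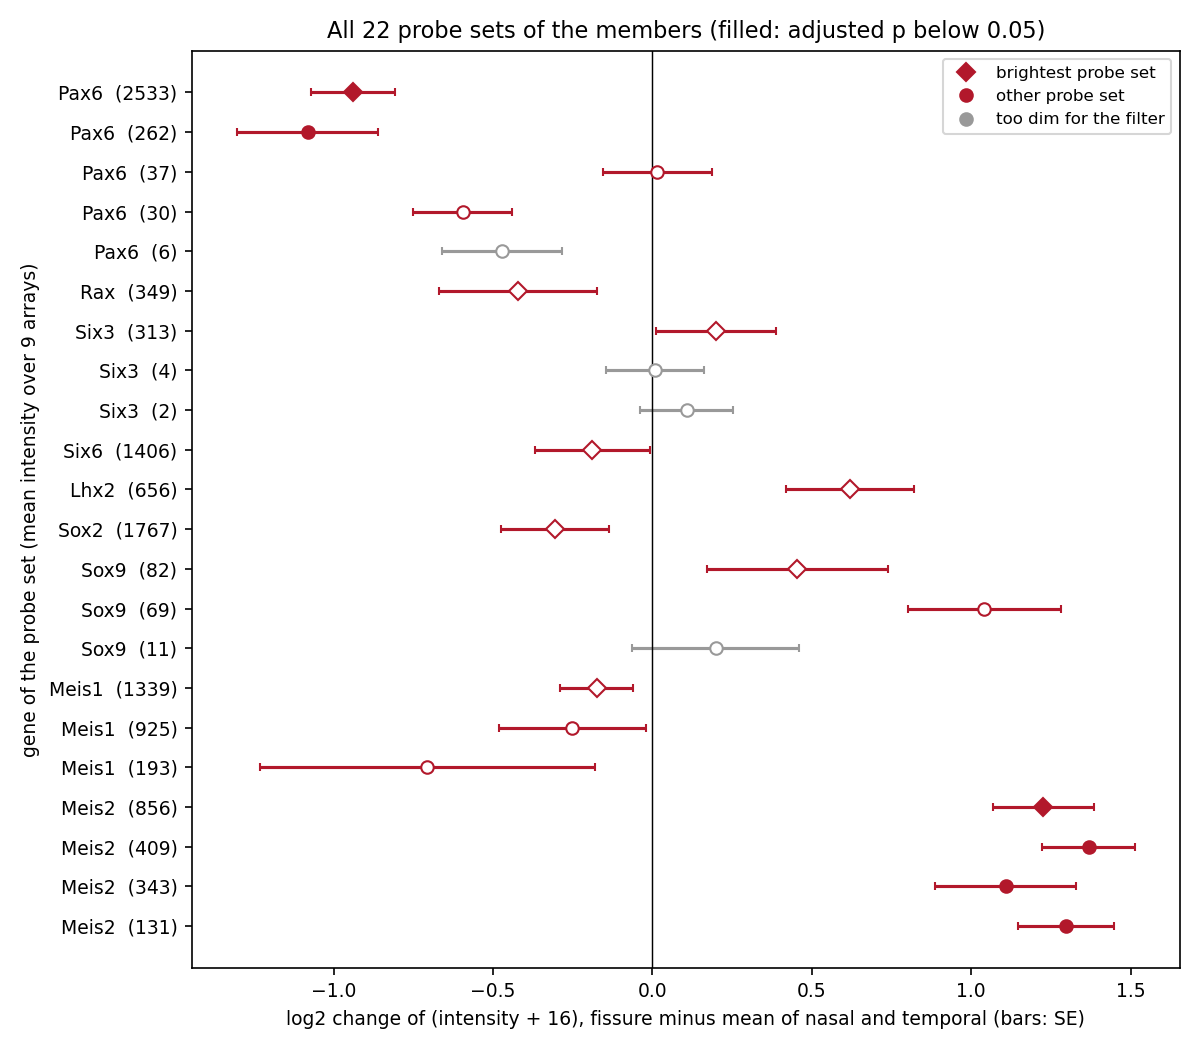
Change of every probe set of the 9 genes between the fissure and the mean of both other regions (horizontal axis, log2 of intensity + 16), 1 row per probe set labelled with its mean intensity; diamonds are the brightest probe set of a gene, grey ones were too dim to test as genes, bars are the SE and filled points passed over all probe sets. The 4 Meis2 points sit between 1.11 and 1.37, while the Pax6 points spread from -1.08 to 0.02.

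The paralogs Meis1 and Meis2 were set against each other in the same way. Their centred log2 ratio, Meis2 over Meis1, was 0.97, 1.19 and 0.65 in fissure arrays A, B and C. In the other 6 arrays it stayed between -0.52 and -0.41. The difference was 1.40 (SD 0.27 over 3 fissure arrays and 0.05 over the others), with the smallest p that the exact two-sided permutation test can give, 0.0119, and 0.0357 adjusted over the 3 pairs. Within letters the exact permutation p was 0.0370, the smallest possible, and 0.0556 adjusted. The ratio does not show that either gene was constant. The fissure arrays already lay apart for Meis2 alone, so this test restates that separation and is no further support for it. The pairs were chosen with earlier results known, which the adjustment over the 3 pairs does not cover.

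Compared within a letter, the fissure minus the mean of the nasal and temporal array of that letter gave the same sign in A, B and C for 5 of the 9 genes. The share of all tested genes with 1 sign in all 3 letters was not counted, so this count is not set against it. For Pax6 and Meis1 it was negative in all 3, for Sox2 it was negative in all 3 but only -0.02 in letter B, and for Lhx2 and Meis2 it was positive in all 3. The values for Meis2 were 1.22, 1.51 and 0.94, and those for Lhx2 were 0.57, 0.73 and 0.56. Rax gave 0.06 in letter A and -0.64 and -0.68 in letters B and C. Six3, Six6 and Sox9 also changed sign between letters, with Sox9 at 0.69, 0.80 and -0.12.

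**Figure D4:**
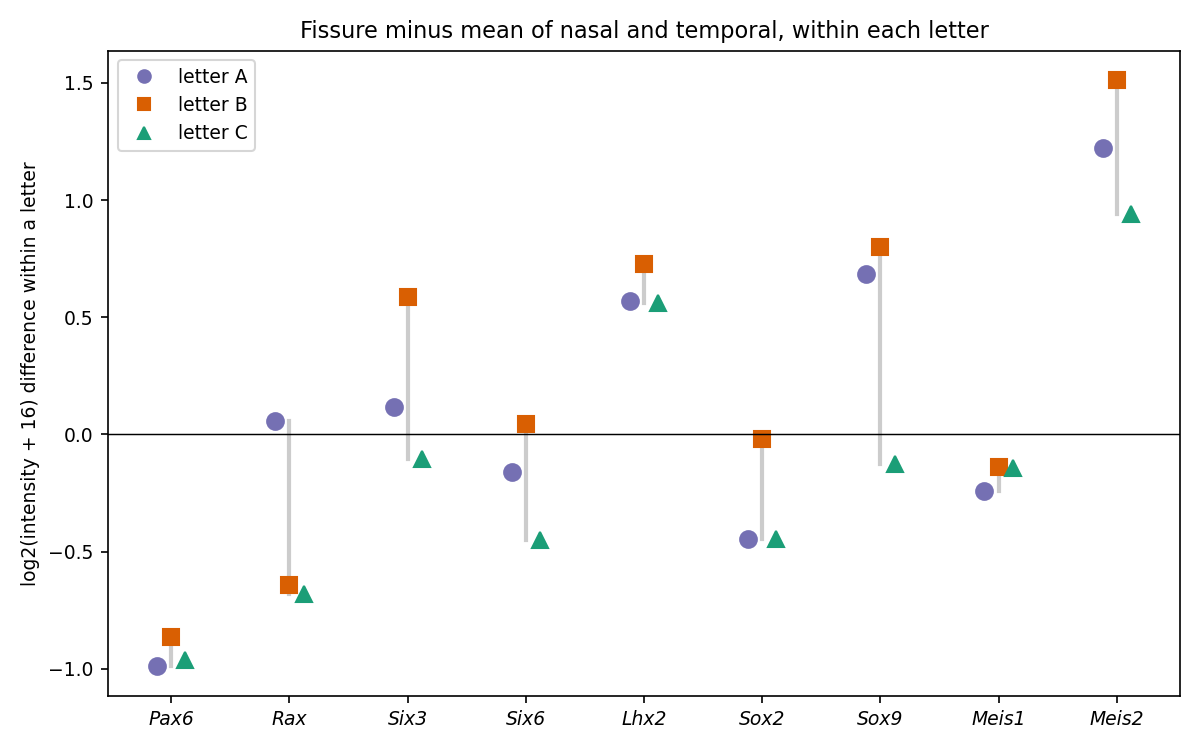
Fissure minus the mean of the nasal and temporal array of the same letter, on the log2(intensity + 16) scale (vertical axis), for each of the 9 genes; 1 point per letter. The points of Pax6 lie below 0 and those of Lhx2 and Meis2 above 0 in all 3 letters.

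Between the nasal and the temporal cup, the changes of the 9 genes ran from -0.29 for Sox9 to 0.19 for Six6. All nasal Pax6 arrays were above all temporal ones, but only just, at 2888.6 in nasal array C and 2885.6 in temporal array C. The change of 0.16 did not pass. The share of all genes without overlap between single regions, as also seen for Six6 and Meis1 above, was not counted. In order of level, Meis2 ran fissure, nasal, temporal, and its last 2 regions did not differ beyond their spread. Pax6 ran nasal, temporal, fissure, where the difference between the nasal and temporal cup did not pass the test.

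Genes with the pattern most like that of Pax6 and of Meis2 were found by the root mean square difference of centred log2 values over the 9 arrays. For Pax6 the 4 closest were Lmo1 at 0.101, Slc39a12 at 0.118, Dctd at 0.121 and Lgr5 at 0.127. The measure uses log2(intensity + 16), so for genes as dim as Lmo1 and Slc39a12, which averaged 16.6 and 3.07 in the fissure, it depends on the added 16. Lmo1, a LIM-only cofactor, averaged 16.6 in the fissure, 54.7 in the nasal and 42.9 in the temporal cup. For Meis2 the 4 closest were Nexmif at 0.113, Zfp503 at 0.148, Sytl2 at 0.167 and Klhl14 at 0.172. Zfp503, a zinc finger repressor known in the closing of the optic fissure, averaged 1090 in the fissure, 406 in the nasal and 427 in the temporal cup. Among the members themselves, the most alike pair was Sox2 and Meis1 at 0.202, followed by Six3 and Six6 at 0.229.

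The other genes of each family were counted in the same fit, in lists chosen with earlier results of these data known. Against the median change of all tested genes, which was 0.04, 16 further retinal progenitor genes had a median of -0.42, with 4 lower and 0 higher. Over all tested genes 2.88% were lower and 5.72% were higher, and each list count that follows is to be read beside those shares. Fgf15, a growth factor of the retina that marks progenitors, fell to 271 ± 49.2 in the fissure, against 1749 ± 214 in the nasal and 1694 ± 222 in the temporal cup (SD, n = 3 each), a change of -2.60 (limma adjusted p = 3.35e-06). Hes5, a Notch target that holds cells in the progenitor state, had a change of -1.93, Foxn4 one of -1.55, and Sfrp2, named after its value was seen, one of -1.12. With the letter as a block, in the fit where 17.0% of all genes passed, 8 of the 16 were lower and 1 was higher.

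Among 10 proneural genes and early neuronal factors, 4 were lower and 1 was higher, with a median of -0.48. Neurog2, which starts neurogenesis, had 28.9 ± 11.4 in the fissure, against 110 ± 60.3 in the nasal and 278 ± 91.7 in the temporal cup (SD, n = 3 each), a change of -2.06. Neurod1 had a change of -1.78. Sox4, a Sox gene of maturing neurons, was the one higher, at 1.09. Of 9 genes in a list of Eya, Dach and further Six-family genes, 1 was higher and 1 was lower, with a median of -0.22. The lower one was Dach2, which fell by 0.68. The higher one was Eya2, at 68.0 ± 23.5 in the fissure, 10.7 ± 3.46 in the nasal and 11.97 ± 3.86 in the temporal cup (SD, n = 3 each). The other Sox genes, 10 tested, had 4 higher and 1 lower, with a median of 0.43. Sox5 rose by 1.30, and Sox1, a relative of Sox2 in the neural plate, had 30.9 ± 7.53 in the fissure, 3.07 ± 2.43 in the nasal and 3.07 ± 1.12 in the temporal cup (SD, n = 3 each). Eya2 and Sox1 were above the filter only on the 3 fissure arrays, so they had to be higher there to be tested.

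Of 12 other TALE homeobox genes, relatives and partners of the Meis proteins, 2 were higher and 0 were lower, with a median of 0.12. Pknox2 had 520 ± 160 in the fissure, against 144 ± 36.7 in the nasal and 167 ± 39.7 in the temporal cup, a change of 1.62 (adjusted p = 0.00106). Pbx3, a Meis partner, had 1788 ± 236 in the fissure, against 959 ± 40.1 in the nasal and 1120 ± 126 in the temporal cup, a change of 0.77 (adjusted p = 0.00447; SD, n = 3 each for both). The other 10 did not pass, among them Pbx2 at 0.42, Pknox1 at -0.42, Tgif1 at -0.40 and Meis3 at 0.29. These were named after their values were seen. Of 8 LIM relatives and cofactors, Lmo3 was higher, at 28.3 ± 8.80 in the fissure, 9.37 ± 5.01 in the nasal and 3.13 ± 0.321 in the temporal cup (SD, n = 3 each), and Lmo1 had a change of -0.98. Lmo3 was above the filter only on the fissure arrays. Of 4 other Pax genes and of 5 Groucho corepressors, 0 passed in limma. Without adjustment, 0 Pax genes and 2 Groucho genes had a p below 0.05, and with the letter as a block 1 Groucho gene, Tle2, was higher and 1, Tle4, was lower. Pax2 is not among these genes and was not analysed here.

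**Figure D5:**
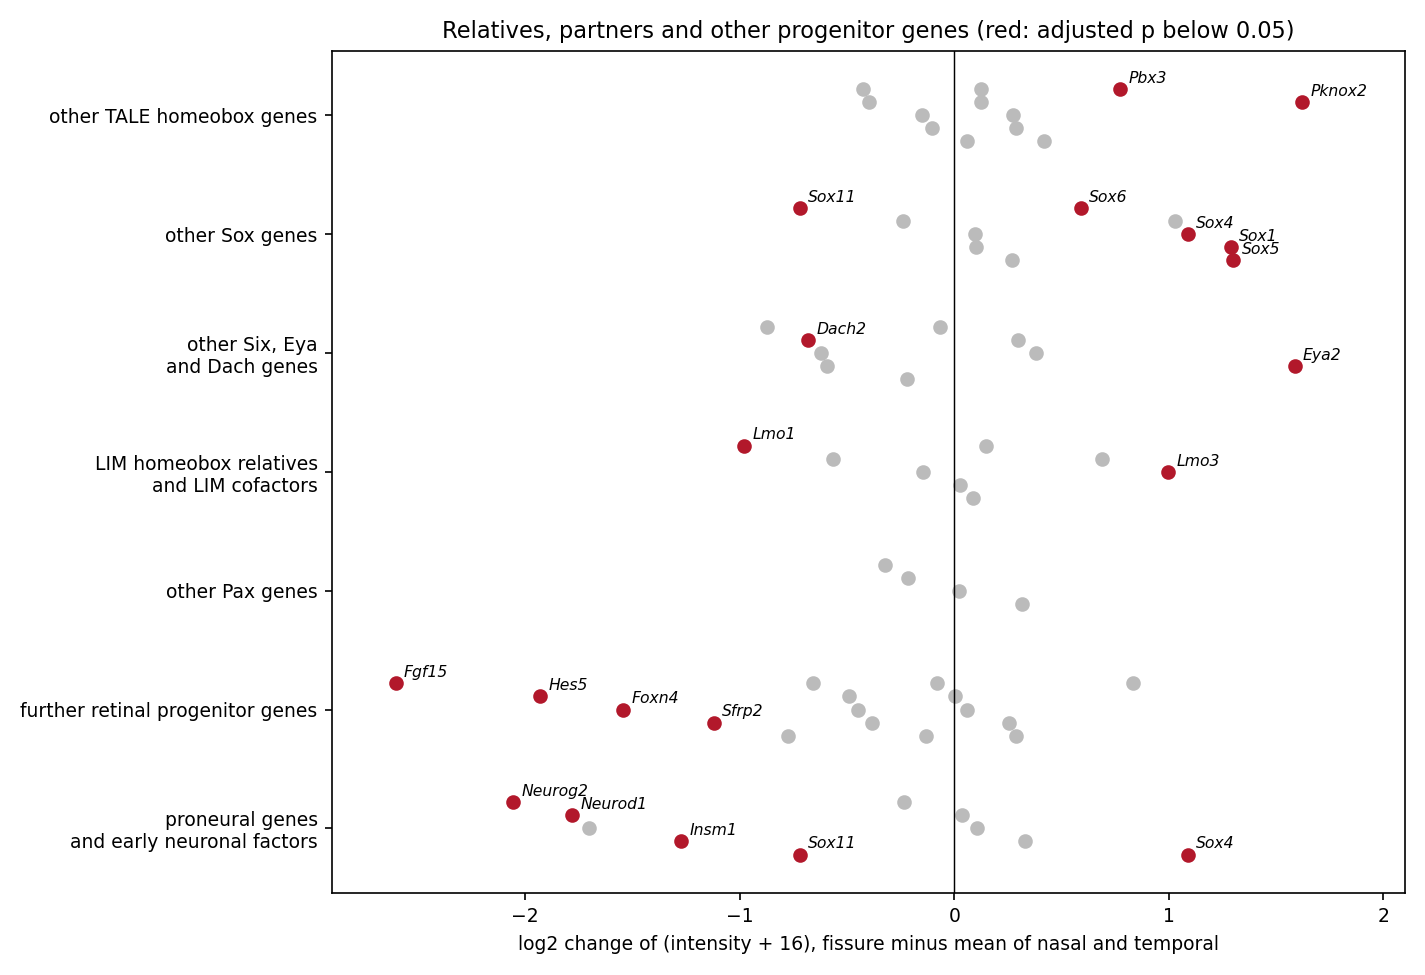
Change between the fissure and the mean of both other regions (horizontal axis, log2 of intensity + 16) for the lists of relatives, progenitor genes and proneural genes, 1 row per list and 1 point per tested gene; red points, with names, passed an adjusted p of 0.05 and grey points did not. Pknox2, Pbx3 and Sox5 lie right of 0 and Fgf15, Hes5 and Neurog2 left of it.

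In a list of 9 genes of the dorsal to ventral axis of the cup and stalk, 4 were higher and 1 was lower, and the other 4, Ptch1, Gli1, Tbx5 and Shh, did not pass. The lower one was Tbx2, a gene of the dorsal cup. Vax1, which represses Pax6 in the optic stalk, rose by 3.77 and Aldh1a3 by 2.45. Ntn1 had 270 ± 135 in the fissure, 2.93 ± 2.76 in the nasal and 12.2 ± 1.62 in the temporal cup (SD, n = 3 each) and was above the filter only on the fissure arrays. Vax2 was the other higher one. Among 12 pigment epithelium genes, 3 were higher, among them Tfec at 2.33 and Otx1 at 1.43, and 5 were lower, among them Oca2 at -1.39. Their summed level was 13351 to 15958 in fissure arrays, against 15672 to 18369 in nasal and 14117 to 17438 in temporal arrays. The parts of these gene groups in the values of Pax6 and Meis2 were not tested.

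Markers of other cells differed between the regions. All 12 tested macrophage and leukocyte genes were higher in the fissure, of which C1qa, C1qc and Aif1 were above the filter only there, with a sum over the list of 2922 to 3503, against 533 to 807 in nasal and 429 to 688 in temporal arrays. Of 15 periocular mesenchyme genes, 7 were higher and 2 lower, with sums of 1504 to 3120 in the fissure, 919 to 1521 in nasal and 753 to 1626 in temporal arrays. The higher ones include Eya2, already counted above and above the filter only on the fissure arrays. Of 8 lens genes tested, 4 were higher and 1 lower, with sums of 2430 to 3490 in the fissure, 698 to 745 in nasal and 636 to 1244 in temporal arrays. The lower lens gene was above the filter only outside the fissure. The lens genes Foxe3, Mip, Bfsp1 and Crygs were too dim to test. Fissure array B had the highest Meis2 of the 9 arrays on the main probe set. On the second brightest Meis2 probe set alone it was the lowest fissure array, at 635.2 against 791.2 in A and 673.5 in C. The mesenchyme sum of fissure array B was 1504, against 3120 in A and 3119 in C. Letter B also had the lowest mesenchyme sum in the nasal (919) and temporal (753) arrays. The lens sum of fissure array B was the highest, 3490 against 2435 in A and 2430 in C. Of 8 surface ectoderm genes tested, 1 was higher and 4 were lower, with sums of 496 to 574 in the fissure, 1197 to 1583 in nasal and 902 to 1336 in temporal arrays. The sole higher one and 2 of the lower ones were above the filter on 1 side of the comparison only. The endothelial sums overlapped, at 387 to 742 in the fissure, 346 to 489 in nasal and 391 to 582 in temporal arrays, and the erythroid sums were 13351 to 17828 in the fissure, 9467 to 14818 in nasal and 11533 to 13350 in temporal arrays. Of 7 endothelial and 7 erythroid genes 0 passed in limma. With the letter as a block, 1 endothelial gene (Egfl7) and 3 erythroid genes (Hbb-bh1, Hba-x and Alas2) were higher in the fissure. Without adjustment, 2 endothelial and 3 erythroid genes had a p below 0.05. The part of these cells in the changes of the 9 genes was not tested.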

How the data were processed

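Intensity per probe set, on a linear scale, was deposited by the authors for 9 arrays. Their probe summary and array scaling are not given in the sources used here. Values were used as deposited. Gene names come from the platform annotation, which can be old: 34945 probe sets had 1 symbol, 932 had several and 9160 had none.

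Values were turned into log2(intensity + 16). Genes exceeding the 40th percentile of the array in 3 or more arrays were tested, 12770 in all. Limma 3.58.1 in R 4.3.3 fitted 1 mean per region to all 9 arrays, with Benjamini-Hochberg adjustment and a threshold of 0.05. Figures used matplotlib 3.10.9 in Python 3.11.15. The fit was tested on simulated data.

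Whether letters pair the samples was checked: deviations from region means correlated at 0.166 to 0.487 in 9 pairs sharing a letter, against -0.438 to 0.218 in 18 pairs sharing neither letter nor region. Each pair sharing a letter was over 0.1, so letters were taken to pair samples, from the data and not from the labels. The ranges overlap, so this is weak ground for pairing. The main fit left the letter out, and the block was run as an alternative. Calls of genes that did not pass hold for the main fit. Against the mean of both, 1098 genes passed in the main fit and 2172 with the block. For Lhx2 the limma adjusted p was 0.0820 in the main fit and 0.00722 with the block.

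Members, lists, pairs and tests were chosen with earlier results of these data known. The genes named are the members, the 4 genes most like each member that passed, up to 3 per list by p, and the region check genes. Exceptions, named after their values were seen, are Sfrp2, Tbx2, Vax2, untested lens genes, genes that did not pass and genes that passed only with the block. Alternatives covered the filter, pseudocount, scaling, probe set choice, variance model, array weights, block, covariates and leaving out arrays. The number of arrays limits the precision.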

Additional observations from a re-analysis of the deposited data

How the results depend on the processing

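Pax6 and Meis2 kept their calls against the mean of both in all 24 alternatives run, at -1.08 to -0.61 for Pax6 and 1.04 to 1.39 for Meis2. Against that mean, 1098 genes passed in the main setting and 721 with a filter at the median over genes of the mean log2 intensity. The counts were 4100 with array weights, 2172 with the replicate block and 446 with the poly-A spike signal in the fit. Leaving out 1 array gave 545 to 1721 genes, with 545 without fissure array A, 590 without C and 1721 without B. Members passing numbered 4 with array weights and 2 to 3 without 1 array. Lhx2 passed with array weights at 0.65, with the replicate block at 0.62 and without the letter B arrays at 0.57, and ran from 0.49 to 0.75 without 1 array. Sox2 passed with array weights at -0.44 and ran from -0.52 to -0.18 without 1 array. Sox9 passed at 1.04 with the most variable probe set. Six3 turned to -0.094 with the spike covariate.

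Against the nasal cup, where 814 genes passed, the counts were 508 with the median filter, 2675 with array weights, 1592 with the replicate block, 410 with the spike and 420 to 1245 without 1 array. Lhx2 passed at 0.66 with array weights and 0.64 with the block, and Six3 turned to -0.064 with the spike. Against the temporal cup, where 685 passed, the counts were 3133, 1541 and 277 with weights, block and spike, and 372 to 1161 without 1 array. Members passing there were 4 with weights, 1 with the spike, and 1 to 3 without 1 array. Pax6 stood at -0.85 with the spike, Six3 at -0.0087 without letter B and -0.12 with the spike, Sox2 at -0.56 with weights, and Six6 ran from -0.32 to 0.082 without 1 array. Nasal against temporal, 6 genes passed, and 11 with all probe sets, 10 with weights, 17 with the block, 3 with only the regions compared, 3 without letter B, 10 with the Gapdh ratio as a covariate and 2 to 8 without 1 array. Chosen after seeing the data, the same settings were run on the pairs of relatives without a test: the difference was 1.27 to 2.07 for Meis2 over Meis1, 0.28 to 0.48 for Six3 over Six6 and 0.59 to 1.35 for Sox9 over Sox2. The cause of these moves was not tested. With the fissure label moved only within letters, also chosen after seeing the data, 0 of 3 pairs passed after adjustment. The adjusted exact permutation p-values were 0.0556, 0.0556 and 0.0741 for Meis2 over Meis1, Six3 over Six6 and Sox9 over Sox2. Before adjustment, Meis2 over Meis1 and Six3 over Six6 had 0.0370, the smallest p that these arrangements can give. No detection calls were used, and 3 arrays per region limit the precision.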
